A study of Mus musculus with 12 samples.

Results

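The GIMAP genes (GTPases of immunity-associated proteins) of the mouse were followed in sorted splenic CD4 T cells. The 8 members were Gimap1, Gimap3, Gimap4, Gimap5, Gimap6, Gimap7, Gimap8 and Gimap9, chosen by symbol out of 24351 symbols in the deposited tables. They gave 6 measurable units, because Gimap1, Gimap5 and Gimap7 were reported as a joined entry. Cells came from spleens of C57BL/6 mice and were sorted as T follicular helper (TFH) cells, which carry CD4, CXCR5 and PD-1, or as Non-TFH cells, which carry CD4 and neither of the other markers. All mice carried floxed Ets1 alleles (Ets1 flox/flox). The groups called WT had no Cre, and the groups called cKO also carried CD4-cre, a transgene active in developing T cells and therefore in T cells beyond the CD4 lineage. The groups were WT Non-TFH, cKO Non-TFH, WT TFH and cKO TFH, with 3 stranded poly(A) RNA libraries each. Age, sex and any immunisation of the mice were not given in the labels, which also do not say that replicates came from separate mice. The p-values therefore describe variation among these libraries, and that variation may be technical.

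GIMAP proteins are small GTPases of lymphocytes, many of them anchored to membranes of organelles, and their genes lie side by side in a single cluster. In rodents, loss of Gimap5 leaves few long-lived peripheral T cells, and loss of Gimap1 in mice depletes mature T and B lymphocytes. Gimap3 is the closest relative of Gimap5, Gimap4 has been linked to T cell death, and Gimap6 binds a protein of the autophagy machinery. GIMAP7 of humans stimulates GTP hydrolysis by partner GIMAPs, and Gimap8 is a large member with repeated GTPase domains.

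The members occupied 124 kb of chromosome 6 (48647234 to 48771232, build mm10), with no other named gene listed between them. In the annotation of GRCm38, the assembly behind mm10, the order was Gimap8 (48647234 to 48660875, plus strand), Gimap9 (48676129 to 48679114, plus), Gimap4 (48684549 to 48692060, plus), Gimap6 (48701582 to 48708225, minus), Gimap7 (48718621 to 48724636, plus), Gimap1 (48739054 to 48743795, plus), Gimap5 (48746197 to 48754210, plus) and Gimap3 (48764464 to 48770851, minus). That annotation also holds Gm28053 (48718607 to 48752644, plus), a gene model that spans Gimap7, Gimap1 and most of Gimap5, and Gimap1os, a transcript on the strand opposite Gimap1. Gimap3 and Gimap6 had entries of their own in all 12 libraries, Gimap8 and Gimap9 in 11 and Gimap4 in 10. Gimap4 was joined with Gimap8 in WT Non-TFH replicate 1 and with Gimap9 in cKO TFH replicate 1, and these values were left missing. Gimap1, Gimap5 and Gimap7 shared an entry in 11 libraries. In WT TFH replicate 1 Gimap7 stood alone, at 168 FPKM as deposited, and Gimap1 and Gimap5 were joined with the upstream gene Zfp775, at 258 FPKM as deposited, so the value used for that library contains any Zfp775 signal. Transcript sequences of Gimap3 and Gimap5 overlapped, with 7.52% of the 50-base windows of Gimap3 and 9.98% of those of Gimap5 found in the other gene and a longest shared run of 140 bases, so reads in those stretches could be assigned to either gene. No such window was shared by the other members.

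The sequences around the starts of the genes whose levels moved most distinctly are shown here because Ets1, the gene floxed in these mice, encodes a transcription factor that binds GGAA cores. Each window holds 250 bases before and 50 after the start in RefSeq (GRCm38.p6), on the strand of the gene. Capitals mark the letters CGGAAG or AGGAAG, or the same letters on the other strand (CTTCCG or CTTCCT).
Gimap8 (chr6:48646984-48647283, plus strand): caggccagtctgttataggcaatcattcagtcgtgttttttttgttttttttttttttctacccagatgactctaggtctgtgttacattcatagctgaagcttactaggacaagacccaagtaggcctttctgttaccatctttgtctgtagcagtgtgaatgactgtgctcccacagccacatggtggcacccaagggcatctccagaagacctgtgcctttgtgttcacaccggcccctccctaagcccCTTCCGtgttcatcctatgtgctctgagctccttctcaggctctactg
Gimap6 (chr6:48708195-48708494, minus strand): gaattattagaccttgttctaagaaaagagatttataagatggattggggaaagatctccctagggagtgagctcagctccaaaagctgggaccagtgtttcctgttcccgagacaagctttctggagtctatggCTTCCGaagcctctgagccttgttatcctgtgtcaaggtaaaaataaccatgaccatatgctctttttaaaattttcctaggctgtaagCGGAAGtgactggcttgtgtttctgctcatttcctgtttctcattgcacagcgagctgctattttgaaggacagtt
Gimap3 (chr6:48770802-48771101, minus strand): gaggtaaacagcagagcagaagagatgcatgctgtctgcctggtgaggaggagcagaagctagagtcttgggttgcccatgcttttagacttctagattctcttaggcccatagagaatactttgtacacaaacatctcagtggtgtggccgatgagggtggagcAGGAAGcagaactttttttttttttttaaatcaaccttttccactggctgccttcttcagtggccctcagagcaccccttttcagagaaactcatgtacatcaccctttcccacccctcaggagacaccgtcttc
At least 1 such match stood in a window of all 8 members (9 windows, since Gimap8 has 2 starts), against 46.5% of the 32851 mouse windows of the same length. The letters were shortened after the longer CCGGAAG or CAGGAAG had been searched, which 20.9% of all windows hold and which 3 members hold (Gimap9, Gimap5 and Gimap3). Matches of the longer letters contain matches of the shorter ones. A match is a run of letters, not a measured binding site. GTAAACA, the letters bound by FOXO factors, stood in the window of Gimap3 and in 3.65% of all windows, on either strand. Letters for RUNX factors (TGTGGTT) were also searched and stood in no member window and in 5.27% of all windows. Those for TCF and LEF factors (CTTTGAA or CTTTGTT) stood in the window of Gimap7 and in 10.6% of all windows.

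Levels are given in FPKM, fragments corrected for transcript length and library depth, scaled between libraries by a single factor each (0.856 to 1.14). Depth was estimated at 11.9 to 15.5 M fragments per library, since the tables hold no counts. Without the scaling, the median feature stood 0.37 log2 (WT) and 0.27 log2 (cKO) higher in TFH than in Non-TFH cells, and changes are relative to that median. The 8 usable T cell markers summed to 2164 to 2522 FPKM in Non-TFH and 2953 to 3581 FPKM in TFH libraries. In cKO against WT, 2 were called higher (adjusted p under 0.05) and 3 lower in TFH cells, and 1 and 2 in Non-TFH cells. Over all features, 30.7% and 20.3% were called. Thy1 had means of 298 FPKM in WT and 29.0 in cKO Non-TFH cells, and 32.5 in WT and 1.59 in cKO TFH cells. The 10 TFH markers summed to 136 to 207 FPKM in Non-TFH libraries, 1271 to 1556 in WT TFH and 2454 to 2771 in cKO TFH libraries. Of these 10, 7 were called higher and 1 lower in cKO against WT TFH cells (30.7% of all features called). In TFH against Non-TFH cells, 9 were called higher and 1 lower in WT mice, and 10 and 0 in cKO mice (67.5% and 67.1% of all features called). Marker sums leave out missing values, and Sh2d1a had values in only 2 WT Non-TFH libraries. Ets1 itself was 408 ± 5.34 FPKM in WT and 400 ± 17.9 in cKO Non-TFH cells, and 196 ± 23.0 in WT and 252 ± 26.0 in cKO TFH cells (SD, n = 3). Ets1 was thus not lower beyond the spread in cKO Non-TFH cells and was higher in cKO TFH cells. A value for the whole gene does not separate the floxed segment from other exons, and exons were not examined. It therefore does not check the deletion, and genotypes are given as labelled. WT Non-TFH replicate 1 listed 22802 named entries, against 23657 to 23913 in the other libraries, and held none for the 4 Y-linked genes examined or for Xist. The summed Y-linked genes were at 0 in all 3 cKO TFH libraries and at 7.26 to 115 FPKM in the WT TFH libraries, so Y-linked expression moved with genotype there. It also moved with cell type, since the sum was 161 to 172 FPKM in the 2 WT Non-TFH libraries with values and 107 to 152 in cKO Non-TFH libraries. Xist stood at 14.8 to 23.2 FPKM in cKO TFH and 0 to 15.9 in WT TFH libraries. It stood at 0.163 to 1.81 FPKM in the same 2 WT Non-TFH libraries and 0.0827 to 19.6 in cKO Non-TFH libraries. Sex, which the labels do not give, may therefore differ between these groups. The part of sex, Y-linked genes or Xist in the results of either comparison was not tested.

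The family was abundant in every group. Gimap3, Gimap4, Gimap6 and the Gimap1, Gimap5 and Gimap7 entry had median levels above the 99th percentile of all features, Gimap9 stood at the 97.4th and Gimap8 at the 92.5th. In WT Non-TFH cells Gimap3 was highest (774 ± 46.8 FPKM), followed by Gimap4 (547 ± 15.0, n = 2) and Gimap6 (536 ± 14.6), whose ranges overlapped. Leaving out the library of each Non-TFH group in which the joined Gimap1, Gimap5 and Gimap7 entry was listed at 0, that entry came next, then Gimap8 and Gimap9, and these steps did not overlap. On the same basis the order of the means was the same in cKO Non-TFH cells, again with overlap of Gimap4 and Gimap6 only. With the listed 0 values kept, the joined entry ranged from 0 to 309 FPKM in WT and from 0 to 306 FPKM in cKO Non-TFH libraries, its mean lay below that of Gimap8, and its range overlapped those of Gimap8 and Gimap9. In WT TFH cells Gimap6 (664 ± 49.1 FPKM) had the highest mean, overlapping Gimap3 (570 ± 80.8), and Gimap8 was the lowest. In cKO TFH cells the joined entry, Gimap6 and Gimap3 had means of 542 ± 52.2, 533 ± 14.9 and 523 ± 57.7 FPKM and were not separable beyond their spread.

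**Figure D1:**
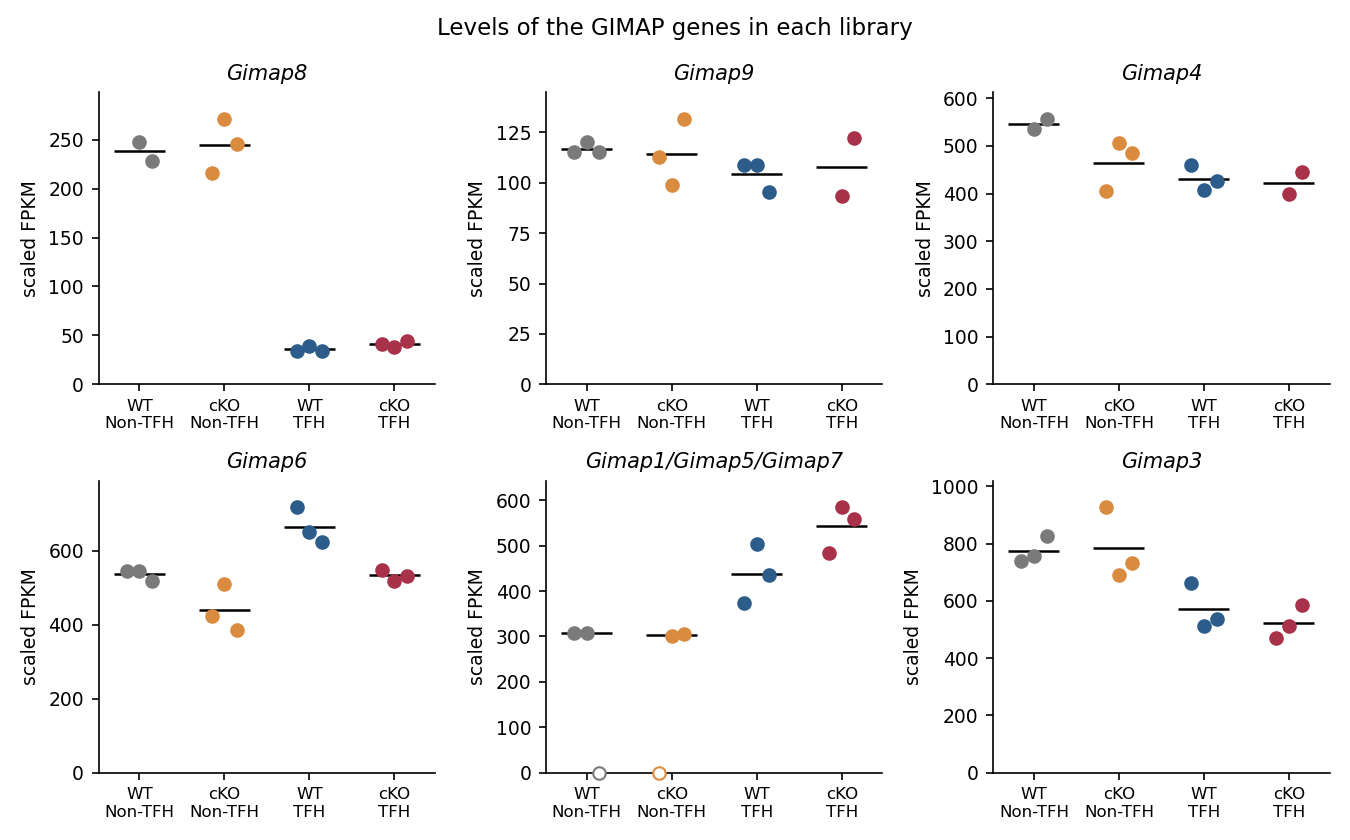
Scaled FPKM (vertical axes, starting at 0) of the 6 GIMAP units in each library, by group on the horizontal axis; points are libraries, bars are means over values above 0, and open points are listed at 0. Gimap8 fell to 34.1 to 44.2 FPKM in the 6 TFH libraries from 216 FPKM or more in Non-TFH libraries, whereas Gimap6 and the joined entry were higher in TFH libraries of the same genotype.

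The first comparison asked how TFH cells differ from Non-TFH cells. Gimap8, the large member, was the outstanding member. In WT Non-TFH replicates 2 and 3 it stood at 248 and 229 FPKM (replicate 1 had no value of its own), and in the 3 cKO Non-TFH libraries at 216, 272 and 246. In WT TFH libraries it stood at 34.1, 39.4 and 34.1 FPKM, and in cKO TFH libraries at 41.1, 37.9 and 44.2. No TFH library came near a Non-TFH library. The log2 change was -2.70 ± 0.12 in WT (SE, adjusted p = 1.3e-08) and -2.54 ± 0.11 in cKO mice (adjusted p = 9.6e-09), that is 6.49-fold and 5.82-fold lower in TFH cells. Only 3.27% of all tested features in WT and 4.21% in cKO mice had a change as low or lower. WT Non-TFH replicate 1, where Gimap8 was joined with Gimap4, showed 771 FPKM as deposited for the joined entry. Summing the entries of Gimap4, Gimap8 and Gimap9 whether joined or not gave 935 ± 56.1 FPKM in WT Non-TFH, 824 ± 79.0 in cKO Non-TFH, 571 ± 26.7 in WT TFH and 547 ± 58.7 in cKO TFH cells (n = 3).

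Gimap3, the relative of Gimap5, was also lower in TFH cells. It stood at 739, 755 and 827 FPKM in WT Non-TFH libraries and at 662, 511 and 536 in WT TFH libraries. It stood at 927, 692 and 733 FPKM in cKO Non-TFH libraries and at 471, 512 and 585 in cKO TFH libraries. The groups did not overlap within either genotype, and the changes were -0.45 ± 0.13 log2 (adjusted p = 0.0087) and -0.58 ± 0.13 (adjusted p = 0.0018). Both calls were lost without scaling between libraries (-0.08, adjusted p = 0.64, and -0.28, adjusted p = 0.087), and the WT call was lost with quantile normalization (-0.18, adjusted p = 0.33). Gimap4 fell from 536 and 557 FPKM in WT Non-TFH replicates 2 and 3 to 459, 409 and 426 in WT TFH libraries, a change of -0.34 ± 0.11 log2 (adjusted p = 0.018). Its sign turned without scaling (0.030), and the call was lost without WT Non-TFH replicate 2 (adjusted p = 0.051) or 3 (0.088), without WT TFH replicate 2 (0.054), with no filter on low values (0.072) and with neither variance trend nor robust moderation (0.051). In cKO mice, where Non-TFH libraries stood at 405, 505 and 485 FPKM and TFH replicates 2 and 3 at 400 and 446, Gimap4 did not pass (-0.13 ± 0.11, adjusted p = 0.30). With quantile normalization Gimap4 was called lower in cKO TFH cells (-0.72, adjusted p = 0.00040). Gimap9, the least abundant member in Non-TFH cells, stayed between 93.6 and 132 FPKM over all libraries and did not pass in WT (-0.17 ± 0.13, adjusted p = 0.26) or cKO mice (-0.09 ± 0.14, adjusted p = 0.59). The WT ranges of Gimap9 did not overlap (115 to 120 FPKM in Non-TFH and 95.5 to 109 in TFH libraries). Without scaling the changes were 0.20 and 0.22. With quantile normalization Gimap9 was called lower in TFH cells of both genotypes (-0.55, adjusted p = 0.0020, and -0.53, adjusted p = 0.0050).

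Gimap6, which binds an autophagy protein, moved the other way. WT Non-TFH libraries stood at 545, 545 and 520 FPKM and WT TFH libraries at 718, 651 and 623, a change of 0.30 ± 0.10 log2 (adjusted p = 0.014). The cKO libraries stood at 423, 510 and 387 FPKM in Non-TFH and at 549, 519 and 533 in TFH cells, a change of 0.29 ± 0.10 (adjusted p = 0.018). TFH and Non-TFH libraries of a genotype did not overlap. The WT call was lost with array weights (adjusted p = 0.062) and without WT TFH replicate 1 (0.056). The cKO call was lost with no filter on low values (0.064), with the groups compared alone (0.0503), without cKO Non-TFH replicate 1 (0.055) or 3 (0.087) and without cKO TFH replicate 1 (0.053), and its sign turned with quantile normalization (-0.30, adjusted p = 0.057).

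The joined entry of Gimap1, Gimap5 and Gimap7, which holds the members required for peripheral lymphocytes, was listed at 0 in WT Non-TFH replicate 3 and cKO Non-TFH replicate 1. The remaining Non-TFH libraries had 309 and 308 FPKM (WT) or 300.3 and 306 FPKM (cKO). The WT TFH libraries had 374, 504 and 436 FPKM and the cKO TFH libraries 484, 585 and 558 FPKM, all above the Non-TFH libraries. A listed 0 can be a failed estimate of a complex locus, and the files do not show which it is. With the 0 values kept, the entry did not pass in WT (3.25 ± 2.61 log2, adjusted p = 0.30) or cKO mice (3.58 ± 2.61, adjusted p = 0.25). With them set to missing, it rose in TFH cells of WT mice by 0.49 ± 0.12 log2 (adjusted p = 0.0048) and by 0.83 ± 0.12 in cKO mice (adjusted p = 0.00015), from 2 Non-TFH libraries each. Which of the 3 genes carried the rise cannot be read from a joined entry.

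Of the 6 units, 1 was called higher and 3 lower in TFH cells of WT mice, where 67.5% of the 11115 tested features were called (35.3% higher and 32.2% lower). In cKO mice 1 was called higher and 2 lower, beside 67.1% of all features (33.5% higher and 33.7% lower). Calls of 4 and 3 of 6 units are no more than the background, and the units' median change was -0.25 log2 in WT and -0.11 in cKO mice, against 0.05 and 0.02 over all features. Exact permutation of the libraries (two-sided) cannot go below p = 0.10 with 3 against 3 libraries or 0.20 with 2 against 3. It gave 0.20 for Gimap8 in WT and 0.10 in cKO mice. Markers of other cells moved with them: the 11 usable B cell markers summed to 1.28 to 3.26 FPKM in WT Non-TFH and 72.3 to 80.1 in WT TFH libraries, and to 2.74 to 3.94 and 43.4 to 51.2 in cKO mice. The 13 macrophage and monocyte markers summed to 38.7 to 80.6 and 1394 to 2010 FPKM in WT, and to 122 to 157 and 682 to 1025 in cKO mice. Of these 13, 12 were called higher and 1 lower in WT TFH cells, and 10 and 0 in cKO TFH cells. Unnamed assembled loci numbered 7942 to 8549 per library in WT Non-TFH and 12338 to 25171 in WT TFH cells, and 6803 to 7406 and 7855 to 10233 in cKO mice. Endothelium also expresses GIMAP genes, and the 12 endothelial markers summed to 40.6 to 51.0 FPKM in TFH and 0.982 to 102 in Non-TFH libraries. These sums were carried by Pecam1, which was listed at 0 in WT Non-TFH replicate 3 and cKO Non-TFH replicate 1. Among the others, Stab2 had means of 0.0943 FPKM in WT Non-TFH and 7.48 in WT TFH cells, and 0.105 and 1.03 in cKO mice. Esam had means of 0.0682 and 2.29 FPKM in WT and 0.122 and 0.190 in cKO mice, and those of Egfl7 were 0.111 and 0.597 in WT and 0.210 and 0.411 in cKO mice. Plvap went the other way, with means of 1.59 and 0 FPKM in WT and 0.660 and 0.0984 in cKO mice. Flt1 also had lower means in TFH cells (0.0617 and 0.00332 FPKM in WT, 0.0783 and 0.00352 in cKO mice). Cdh5 did not have a higher mean in WT TFH cells (0.0815 and 0.0428 FPKM), and Emcn was at 0 in all libraries. Of the 3 endothelial markers tested, 1 was called higher and 1 lower in TFH cells of each genotype. The part of these transcripts in the GIMAP changes was not tested. In bulk samples, fewer cells of a type and less RNA per cell cannot be told apart.

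**Figure D2:**
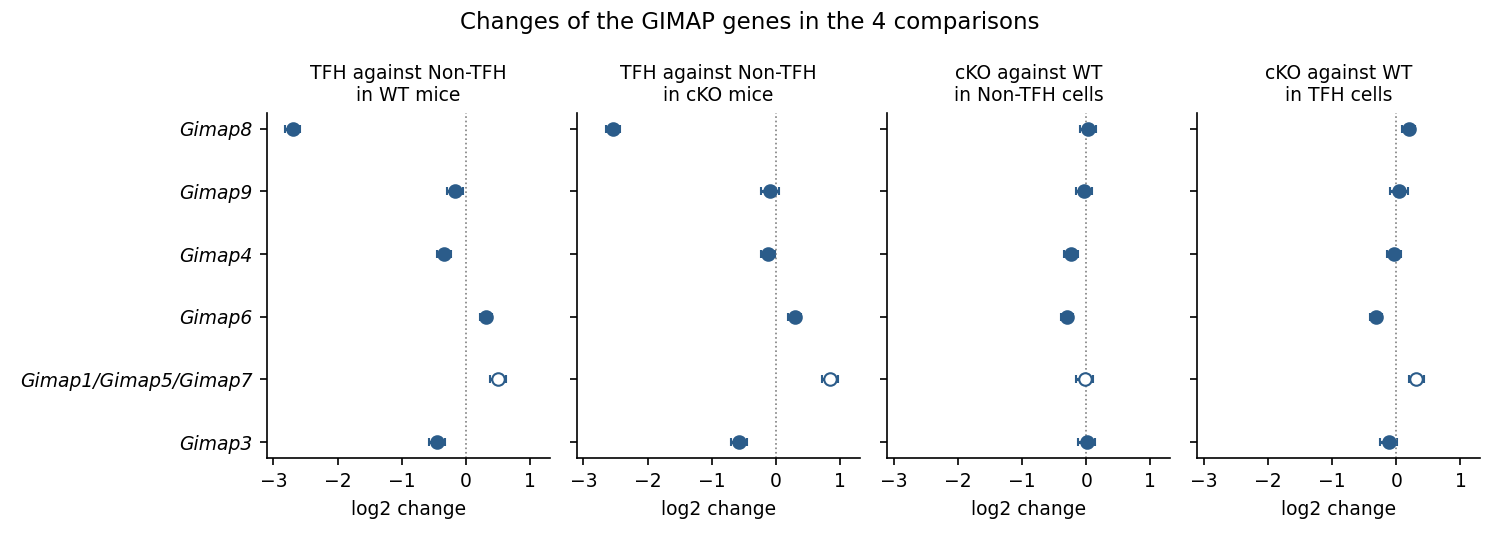
The log2 change (horizontal axes) of each GIMAP unit in 4 comparisons, with bars of 1 SE from the fit; open points are the joined entry with values listed at 0 set to missing. Gimap8 lies near -2.70 and -2.54 in the comparisons of TFH with Non-TFH cells, and Gimap6 near -0.31 and -0.30 in the comparisons of cKO with WT.

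Ratios of members within a library do not depend on the scaling. The ratio of Gimap6 to Gimap8 was 2.20 and 2.27 in WT Non-TFH and 1.57 to 1.96 in cKO Non-TFH libraries. It was 16.5 to 21.1 in WT TFH and 12.1 to 13.7 in cKO TFH libraries. The ratio of Gimap6 to Gimap3 was 0.628 to 0.737 in WT and 0.457 to 0.737 in cKO Non-TFH libraries. It was 1.09 to 1.27 in WT and 0.911 to 1.16 in cKO TFH libraries, with no overlap between the cell types in either genotype. The ratio of Gimap3 to Gimap4 overlapped between the cell types in WT mice (1.41 to 1.48 in Non-TFH and 1.25 to 1.44 in TFH libraries) and did not in cKO mice (1.37 to 2.29 and 1.28 to 1.31).

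**Figure D3:**
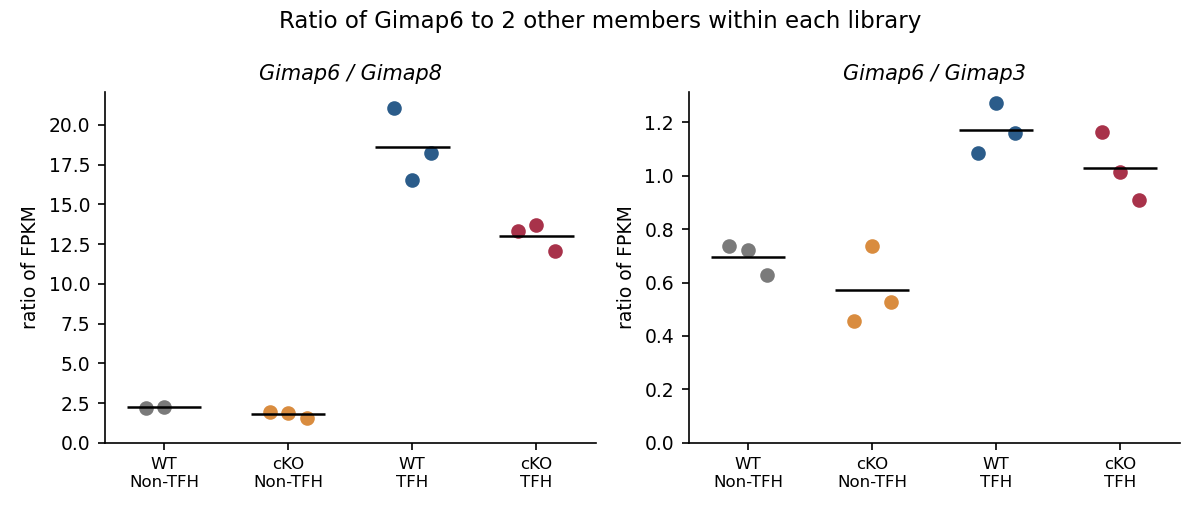
Ratio of the FPKM of Gimap6 to that of Gimap8 (left) and of Gimap3 (right) within each library, by group; points are libraries and bars are group means, and both axes start at 0. All TFH libraries had ratios to Gimap8 of 12.1 or more, against at most 2.27 in Non-TFH libraries.

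The second comparison asked what differed in the mice labelled cKO. Gimap6 was the member that differed, and it was lower in both cell types. In TFH cells it went from 718, 651 and 623 FPKM in WT to 549, 519 and 533 in cKO libraries, a change of -0.31 ± 0.10 log2 (adjusted p = 0.027). In Non-TFH cells it went from 545, 545 and 520 to 423, 510 and 387 FPKM, a change of -0.30 ± 0.10 (adjusted p = 0.048). WT and cKO libraries did not overlap in either cell type, and the exact permutation p (two-sided) was 0.10 each, the smallest this design can give. In TFH cells the call was lost with no filter on low values (adjusted p = 0.098), with array weights (0.19), with neither variance trend nor robust moderation (0.065), and without WT TFH replicate 1 (0.090) or cKO TFH replicate 2 (0.076) or 3 (0.062). In Non-TFH cells it was lost under 15 of 23 alternatives, among them no scaling (-0.22, adjusted p = 0.16), quantile normalization (-0.25, adjusted p = 0.21), and leaving out WT Non-TFH replicate 1 (0.13), 2 (0.13) or 3 (0.084), cKO Non-TFH replicate 1 (0.14) or 3 (0.19), WT TFH replicate 2 (0.060) or cKO TFH replicate 1 (0.057), 2 (0.061) or 3 (0.061). Its sign was negative under every alternative run in both cell types.

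The other units did not pass in either cell type. Gimap8 changed by 0.19 ± 0.11 log2 in TFH cells (95% interval -0.05 to 0.43, adjusted p = 0.21) and by 0.03 ± 0.12 in Non-TFH cells (-0.24 to 0.30). Gimap3 changed by -0.12 ± 0.13 in TFH (-0.40 to 0.16) and by 0.01 ± 0.13 in Non-TFH cells (-0.27 to 0.29). Gimap4 changed by -0.03 ± 0.11 in TFH (-0.27 to 0.21) and by -0.24 ± 0.11 in Non-TFH cells (-0.48 to 0.00, adjusted p = 0.17), where WT replicates 2 and 3 lay above all cKO libraries. Gimap9 changed by 0.04 ± 0.14 and -0.04 ± 0.13. The joined Gimap1, Gimap5 and Gimap7 entry changed by 0.31 ± 2.61 in TFH cells with the 0 values of the Non-TFH libraries kept, and by 0.31 ± 0.11 with them set to missing (adjusted p = 0.055). With these 0 values missing it passed without scaling (adjusted p = 0.048), without WT TFH replicate 2 (0.017) and without cKO TFH replicate 1 (0.032). Leaving out the other libraries gave no call, and without WT TFH replicate 1, whose entry also holds Zfp775, the change was 0.21 log2 (adjusted p = 0.16). In Non-TFH cells its value was -0.03 ± 0.14 with the 0 values missing.

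In TFH cells 0 of 6 units were called higher and 1 lower, where 30.7% of all features were called (15.7% higher and 15% lower). In Non-TFH cells the counts were also 0 and 1, where 20.3% were called (11.8% higher and 8.55% lower). The share of members called was no larger than that of all features. The median over the units was 0.00 log2 in TFH and -0.03 in Non-TFH cells, against 0.04 and 0.03 over all features. In TFH cells, the summed TFH markers given above were higher in cKO libraries, and the summed macrophage and B cell markers were lower. Of the 13 macrophage and monocyte markers, 11 were called lower in cKO TFH cells and 2 higher. Itgam had means of 1.35 FPKM in WT and 27.6 in cKO TFH cells, and Lyz2 of 283 (n = 2) and 608. Unnamed assembled loci in the same cells came to between 12338 and 25171 per WT library and between 7855 and 10233 per cKO library. The CD8 T and NK cell list had 9 usable markers. In Non-TFH cells they summed to 55.6 to 58.1 FPKM in WT and 192 to 225 in cKO libraries. Of these 9, 4 were called higher in cKO Non-TFH cells and 2 lower, and 3 did not pass. Cd8b1 stood at 11.8 ± 2.51 FPKM in WT and 101 ± 5.39 in cKO libraries (SD, n = 3). Gzmb stood at 0.427 ± 0.137 and 49.9 ± 6.25. Klrd1 went the other way, from 24.6 ± 1.88 to 2.08 ± 0.775 FPKM, as did Prf1, from 11.8 ± 0.372 to 1.21 ± 0.367. In TFH cells the CD8 T and NK cell markers summed to 31.0 to 192 FPKM in WT and 168 to 252 in cKO libraries. Nkg7 had values in only 2 WT TFH libraries (120 and 161 FPKM), so the sum of 31.0 lacks it. The mean of Nkg7 was 144 FPKM in cKO TFH cells. The summed macrophage markers given above were higher in cKO than in WT Non-TFH libraries. Of the 13, 6 were called higher and 0 lower there, and 7 did not pass. Lyz2 had means of 36.6 FPKM in WT and 95.8 in cKO Non-TFH cells, and Mertk of 0.361 and 0.391. The part of these values in the change of Gimap6 was not tested. The difference between both genotype changes was called for 0 of 6 units in limma, with 0 at an unadjusted p under 0.05, beside 17.3% of all features (6.85% higher and 10.5% lower). It was -0.02 ± 0.13 log2 for Gimap6 (95% interval -0.31 to 0.28) and 0.16 ± 0.16 for Gimap8 (-0.20 to 0.52), so a smaller effect than these bounds was not resolved.

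The flanks of the cluster were followed to see how far the pattern of the cluster reached. Of 24 named genes within 500 kb of its ends, 11 were tested. Between the cell types, 4 rose and 4 fell in TFH cells of WT mice, and 4 and 3 in cKO mice, beside 67.5% and 67.1% of all features called. Tmem176b and Tmem176a, membrane proteins of myeloid and some T cells and the nearest tested genes beyond Gimap3, were higher in TFH cells. Tmem176b went from 2.29 ± 0.831 to 27.9 ± 6.23 FPKM in WT (3.15 ± 0.21 log2, adjusted p = 1.2e-07) and from 2.10 ± 0.329 to 15.9 ± 1.25 in cKO mice (2.45 ± 0.21). Tmem176a rose by 2.84 ± 0.18 and 1.73 ± 0.18 log2. At the outer edges, Krba1 was lower in TFH cells (-1.10 ± 0.19 log2 in WT and -1.24 ± 0.19 in cKO mice), as was Tra2a, a splicing factor (-1.55 ± 0.11 and -1.16 ± 0.11). AI854703, the nearest tested gene beyond Gimap8, did not pass (0.26 ± 0.21 and 0.17 ± 0.21). Between the genotypes, 0 of these 11 rose and 4 fell in TFH cells of cKO mice, and 0 and 2 in their Non-TFH cells, beside 30.7% and 20.3% of all features called, with Krba1 lower in both (-0.82 ± 0.19 and -0.68 ± 0.19).

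**Figure D4:**
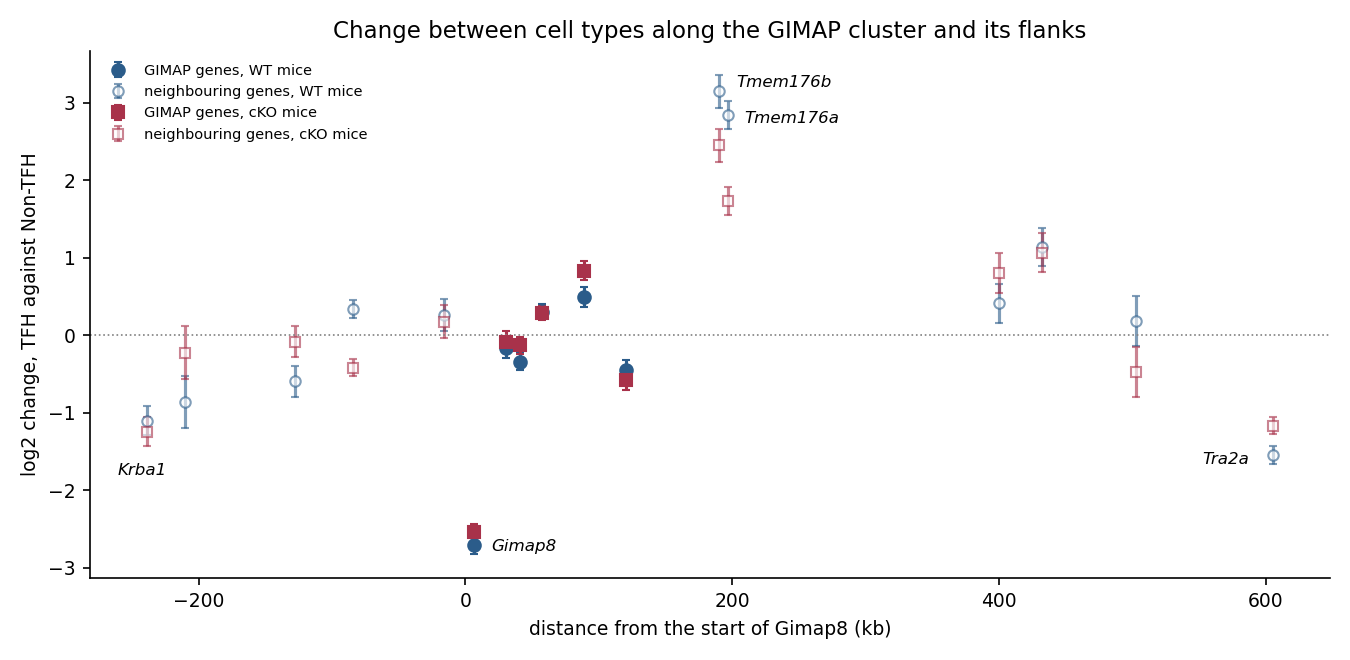
The log2 change of TFH against Non-TFH cells (vertical axis) by distance in kb from the start of Gimap8 (horizontal axis) for the GIMAP units (filled) and tested neighbours (open), in WT (circles) and cKO mice (squares), with bars of 1 SE; the joined entry is shown with values listed at 0 set to missing. Gimap8 lies lowest, and Tmem176b and Tmem176a lie highest.

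Genes of the processes GIMAP proteins are tied to were described from lists chosen by function. Of 14 tested partners and autophagy genes, 8 were higher and 4 lower in TFH cells of WT mice and 7 and 4 in cKO mice (medians 0.38 and 0.31 log2), beside 67.5% and 67.1% of all features called. Gabarapl2, whose protein is the reported partner of GIMAP6, rose in TFH cells from 113 ± 5.54 to 149 ± 17.8 FPKM in WT (0.39 ± 0.14 log2, adjusted p = 0.029) and from 121 ± 22.5 to 205 ± 24.5 in cKO mice (0.76 ± 0.14, adjusted p = 0.00054). It was also higher in cKO than WT TFH cells (0.45 ± 0.14, adjusted p = 0.033), where Gimap6 was lower. Map1lc3b, an autophagosome protein, rose by 1.79 ± 0.18 and 1.74 ± 0.18 in TFH cells, and Atg7, an autophagy enzyme, by 1.16 ± 0.13 and 1.55 ± 0.13, whereas Lamp1, a lysosomal membrane protein, fell by 1.86 and 2.17 log2. In cKO against WT, 2 of the 14 rose and 0 fell in TFH cells, and 3 and 0 in Non-TFH cells, beside 30.7% and 20.3% of all features called.

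Of 13 BCL2 family genes, 5 were higher and 7 lower in TFH cells of WT mice (67.5% of all features called) and 4 and 8 in cKO mice (67.1%). The survival gene Bcl2 fell from 38.1 ± 0.635 to 20.5 ± 4.04 FPKM in WT (-0.88 log2) and from 81.8 ± 3.21 to 25.6 ± 1.87 in cKO mice (-1.64). Mcl1, another survival gene, fell from 160 ± 16.6 to 23.0 ± 5.89 FPKM in WT (-2.77). The survival gene Bcl2l1 went the other way in WT, from 5.44 ± 0.334 to 12.8 ± 1.46 FPKM, and from 20.9 ± 1.84 to 10.5 ± 1.47 in cKO mice. Among death genes in WT, Bak1 went from 21.1 ± 0.495 to 0.502 ± 0.0930 FPKM and Bax from 70.7 ± 2.38 to 95.3 ± 2.18. In cKO against WT Non-TFH cells 6 of the 13 rose and 0 fell, with Bcl2 up by 1.08 log2, while TFH cells had 4 rises and 2 falls, beside 20.3% and 30.7% of all features called. Of 21 genes of naive and quiescent T cells, 2 were higher and 16 lower in TFH cells of WT mice and 1 and 17 in cKO mice (medians -1.45 and -2.54 log2; 67.5% and 67.1% of all features called), the direction of Gimap8 and Gimap3 and opposite to Gimap6. Klf2, a quiescence factor, fell from 108 ± 11.4 to 41.2 ± 4.44 FPKM in WT, and Foxo1, a factor that drives Klf2 expression, fell by 2.36 log2. The cKO against WT comparison gave 1 rise and 9 falls in TFH cells, and 4 rises and 2 falls in Non-TFH cells, again beside 30.7% and 20.3% of all features. Of the interferon-inducible GTPases, another family of immune GTPases, 8 could be tested: 1 was higher and 3 lower in TFH cells of WT mice and 0 and 7 in cKO mice (67.5% and 67.1% of all features called), and 0 rose and 4 fell in cKO against WT TFH cells (30.7%), among them Iigp1 (22.6 ± 2.37 to 8.84 ± 1.23 FPKM). The 12 septins, related GTPases, could not be used by symbol.

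Levels of the members ran partly in opposite directions across libraries. Pearson's r of log2 levels was 0.83 between Gimap3 and Gimap8 (n = 11 libraries), -0.69 between Gimap6 and Gimap8 (n = 11), and -0.50 between Gimap3 and Gimap6 (n = 12), all of which carry the step between cell types. The genes most like the mean of the standardised members were Gm14322 (r = 0.89), Clec16a (0.88), Dclre1b (0.87), 2810403A07Rik (0.86) and Zbtb9 (0.86), over 12 libraries. That mean left out missing values, so its members differed between libraries, and it kept the listed 0 values of the joined entry. It also averaged members that ran in opposite directions. For Gimap8 alone, looked up after its values were seen, they were Zscan25, Thrap3, Pou2f1, Klf13 and Phf2, with r between 0.996 and 0.997 over 11 libraries. For the joined entry the first was Pecam1 (r = 0.96), which shares libraries listed at 0 with it.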

How the data were processed

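Poly(A) RNA was measured by stranded sequencing in 12 libraries, 3 for each of WT Non-TFH, cKO Non-TFH, WT TFH and cKO TFH cells. The authors deposited FPKM per gene in a separate table for each library. Per the submitters' processing notes, mm10 was the build and the tools included Cufflinks, Cuffdiff, TopHat2, TopHat, Bowtie2, Bowtie, cutadapt and FastQC (versions not given in the sources used here). Overlapping genes were joined into 1 entry in some libraries. Symbols with their own entry in 2 or more libraries of each group became 22451 features, the rest formed 806 joint features, and missing values stayed missing.

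FPKM were scaled by median ratios over the 7128 features that reached 1 FPKM in all libraries. The 11115 features reaching 1 FPKM in 3 libraries or more were tested as log2(FPKM + 1), a scale on which changes of low genes are understated. The test was limma 3.58.1 in R 4.3.3 (a mean per group, variance trend, robust moderation, Benjamini-Hochberg adjustment, threshold 0.05). An adjusted p is from this fit. The fit was run on simulated data with planted changes of 1 log2 and no missing values. That check does not cover smaller changes or features with missing values. Comparisons of TFH with Non-TFH and of cKO with WT share libraries. All members were named in every comparison, neighbours within 500 kb were taken, and the 5 genes with the highest Pearson r to the mean profile. Proteins were not used here. The members and lists were chosen with earlier results of these data known. Alternatives were other scalings, filters, pseudocounts and weights, 0 set to missing, a replicate block and leaving out each library. Python 3.11.15, pandas 2.3.3, numpy 2.4.6, scipy 1.17.1 and matplotlib 3.10.9 were used.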

Additional observations from a re-analysis of the deposited data

How the results depend on the processing

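The tables give no counts, so that counting error is unknown, and 3 libraries a group limit the precision. The fall of Gimap8 in TFH cells kept its sign and its call under all 24 alternatives in each genotype. Of the alternatives, those with 0 values missing and no scaling, and with 0 values missing and a library left out, were chosen after seeing the data. The number of members called in cKO against WT was 1 in each cell type. In TFH cells it became 0 with no filter, array weights or neither variance trend nor robust moderation. It became 3 there with quantile normalization, which added Gimap3 (-0.70) and Gimap4 (-0.38). In Non-TFH cells it became 0 with no filter, no scaling, quantile normalization, neither variance trend nor robust moderation, the groups alone or the replicate block. For TFH against Non-TFH cells in WT mice it fell from 4 to 2 without scaling, and for the difference between both genotype changes it rose from 0 to 2 with quantile normalization (Gimap3 -0.79, Gimap6 -0.83). Over all features, calls in TFH cells (3414) became 2247 with array weights and 2202 with the groups alone, those in Non-TFH cells (2261) became 4119 and 3635, and those of the difference (1928) became 1141 with no filter.

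Signs turned as follows, with no call on the turned side. Without scaling, the TFH against Non-TFH change of Gimap4 became 0.030 (WT) and 0.18 (cKO), that of Gimap9 0.20 and 0.22, and in cKO against WT Non-TFH cells Gimap9 became 0.036 and the joined entry 0.042, or 0.063 with its 0 values missing. With quantile normalization, cKO against WT gave -0.11 for Gimap9 and -0.029 for the joined entry in TFH cells and -0.043 for Gimap8 in Non-TFH cells, Gimap6 became -0.30 for TFH against Non-TFH cells of cKO mice, and the difference for Gimap4 became -0.15. With every entry that names a member used, joined ones included, Gimap4 became 0.0094 in cKO against WT TFH cells, Gimap8 -0.60 in Non-TFH cells, and Gimap9 0.61 for TFH against Non-TFH cells of cKO mice. The cause was not tested, except that joined entries add a neighbour's signal.

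With 1 library left out, members called ranged from 0 to 1 in each cKO against WT comparison, 3 to 4 (WT) and 2 to 3 (cKO) for TFH against Non-TFH cells, and 0 to 0 for the difference. All features called ranged from 2829 to 3217 (TFH), 1622 to 2464 (Non-TFH), 6903 to 7547 (WT), 6848 to 7631 (cKO) and 1462 to 1967 (difference). The signs of small values turned: in TFH cells Gimap4 -0.11 to 0.050 and Gimap9 -0.15 to 0.23; in Non-TFH cells Gimap3 -0.12 to 0.093, Gimap8 -0.048 to 0.12, Gimap9 -0.15 to 0.059 and the joined entry -2.77 to 2.73; Gimap9 in cKO mice -0.28 to 0.10; and in the difference Gimap6 -0.11 to 0.093, Gimap9 -0.11 to 0.27 and the joined entry -2.42 to 3.09. Same-numbered libraries did not deviate together (r of -0.03 to 0.06). Such values cannot show whether they came from the same mouse, since a weak effect of the mouse could give them too. With the replicate number as a block, Gimap6 in cKO against WT Non-TFH cells had -0.30 (adjusted p = 0.055) and Gimap4 in WT TFH against Non-TFH cells -0.32 (adjusted p = 0.092), or -0.39 (adjusted p = 0.051) with the block within genotype, and no other call of a member changed.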
